A study of Mus musculus with 12 samples.

Results

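The 10 genes described here encode regulators of fuel use and mitochondrial content in the heart. They are the peroxisome proliferator-activated receptors *Ppara*, *Ppard* and *Pparg*, the retinoid X receptors *Rxra* and *Rxrg*, the PGC-1 coactivators *Ppargc1a* and *Ppargc1b*, the estrogen-related receptors *Esrra* and *Esrrg*, and nuclear respiratory factor 1, *Nrf1*. They were taken by symbol, and all 10 were found among the 19308 genes of the count table. RNA was sequenced from 12 hearts of C57BL/6 mice. Each genotype, WT or F3-KO, gave 3 hearts after sham surgery and 3 after TAC. Mice were operated at 8 weeks of age, and hearts were frozen 1 week after surgery. In transverse aortic constriction (TAC) the aortic arch is narrowed by a suture and the left ventricle has to work at higher pressure, while sham-operated mice had the surgery without the narrowing. F3-KO mice lack *Fabp3*, the fatty acid-binding protein of heart muscle, through a CRISPR/Cas9 knockout that is present in every tissue, so effects from outside the heart cannot be told apart from those within it. The study asked how the loss of *Fabp3* alters cardiac metabolism under pressure overload, and the level of these regulators in each group is one measure of that.

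PPAR receptors are switched on by fatty acids and their derivatives, pair with a retinoid X receptor and bind next to genes of fatty acid uptake and oxidation. PPARα, encoded by *Ppara*, is the main form in cardiomyocytes, PPARδ is expressed widely, and PPARγ is best known as the master regulator of fat cells. The PGC-1 coactivators do not bind DNA themselves but dock onto PPARs, estrogen-related receptors and NRF1, and through the latter factors they drive the genes of the citric acid cycle and the respiratory chain.

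Total estimated counts per heart were 10424334 to 14372011, and the members were counted well above the floor of 3 counts, which is 0.209 to 0.288 CPM. The lowest count of any of them in any heart was 128, for *Pparg* in WT sham replicate 1, and the highest was 3118.92, for *Ppargc1a* in F3-KO sham replicate 2. Levels are given as CPM, which are counts relative to the library total after TMM factors adjusted for differences in library composition. The targeted gene followed the labels, since *Fabp3* was at 1000 to 1140 CPM in the 6 F3-KO hearts and at 2120 to 3060 CPM in the 6 WT hearts, although its transcript was still counted in every F3-KO heart. The hearts carried the 9 cardiomyocyte markers at summed levels of 54600 CPM or more. In the 9 markers of fibroblasts and matrix, 3 TAC-operated hearts stood apart. WT TAC replicate 1 and F3-KO TAC replicates 1 and 2 had summed levels of 3470, 4270 and 7630 CPM, against 799 to 1650 CPM in the other 9 hearts, and the main results that involve TAC are also given without these 3 hearts, a choice made after the data were seen. Summed levels of the 7 macrophage markers were 236 to 483 CPM in WT sham, 342 to 399 in F3-KO sham, 431 to 622 in WT TAC and 515 to 759 CPM in F3-KO TAC hearts, and their part in the results was not tested. In whole hearts, fewer cells of a type and less RNA per cell cannot be told apart.

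Members of this group are known to regulate one another, so their promoters were searched for the sites of these same factors. RefSeq windows of 250 bases before an annotated transcription start were available for 9 of the 10 members, 17 windows in all (build GRCm38.p6; the count table itself holds no coordinates). Each window was searched on both strands for 5 motifs: AAGGTCA, the core bound by estrogen-related receptors; the palindromic NRF1 site; the DR1 element of PPAR and RXR pairs, which can overlap the first motif; TGACGT, the core of the cAMP response element; and CCGGAAGT, the site of GABP. Among all 32851 windows these letters were found in 4.08%, 3.74%, 0.0335%, 6.47% and 2.88%, respectively. *Ppara* held the NRF1 site at -31 to -22 from its start. *Ppargc1a* held the cAMP response element core at -50 to -45, on the opposite strand and so read as ACGTCA. The estrogen-related receptor core stood at -89 to -83 of a second annotated start of *Rxrg* and at -49 to -43 of a second annotated start of *Rxra*. The DR1 element and the GABP site were found in 0 of the 17 windows. These are matches of letters only, and no binding was measured here. The windows shown are those of *Ppara* (chr15:85735526-85735775, plus strand), *Ppargc1a* (chr5:51567726-51567975, minus strand), *Rxrg* (chr1:167618015-167618264, plus strand) and, as the member with the lowest p after TAC but no match, *Esrra* (chr19:6921809-6922058, minus strand), each 5′ to 3′ with the matched motif in capitals.
Ppara: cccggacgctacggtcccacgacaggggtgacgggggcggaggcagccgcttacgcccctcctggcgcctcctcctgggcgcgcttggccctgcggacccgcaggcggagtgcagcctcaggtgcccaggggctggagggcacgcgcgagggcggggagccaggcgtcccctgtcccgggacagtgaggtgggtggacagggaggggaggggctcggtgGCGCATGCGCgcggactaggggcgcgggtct
Ppargc1a: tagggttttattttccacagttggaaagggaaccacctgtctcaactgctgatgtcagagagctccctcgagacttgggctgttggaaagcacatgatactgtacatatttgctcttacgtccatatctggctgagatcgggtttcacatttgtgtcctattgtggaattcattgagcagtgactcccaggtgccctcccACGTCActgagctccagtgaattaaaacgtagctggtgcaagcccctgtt
Rxrg: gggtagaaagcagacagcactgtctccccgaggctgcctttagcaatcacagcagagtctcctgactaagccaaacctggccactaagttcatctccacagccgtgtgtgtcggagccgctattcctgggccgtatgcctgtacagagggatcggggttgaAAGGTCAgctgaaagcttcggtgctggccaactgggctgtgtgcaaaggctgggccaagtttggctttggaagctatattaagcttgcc
Esrra: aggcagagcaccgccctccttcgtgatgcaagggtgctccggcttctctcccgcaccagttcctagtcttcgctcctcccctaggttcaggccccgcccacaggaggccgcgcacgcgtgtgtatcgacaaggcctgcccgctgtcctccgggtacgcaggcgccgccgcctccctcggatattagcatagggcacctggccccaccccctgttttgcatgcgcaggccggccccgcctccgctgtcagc

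Per kilobase of merged exons, which allows levels of different genes to be compared, the members fell into a graded order. *Rxrg*, *Ppara* and *Esrra* stood at the top with means over the 12 hearts of 31.8 ± 5.52, 30.4 ± 6.13 and 30.1 ± 5.45 CPM per kilobase (SD, n = 12 hearts), and *Ppargc1a* followed at 23.7 ± 6.52. *Rxra* (15.3 ± 1.91) and *Ppargc1b* (14.0 ± 3.59) were in the middle. *Esrrg*, *Ppard* and *Pparg* were lower at 7.55 ± 1.25, 6.46 ± 0.868 and 6.35 ± 1.90 CPM per kilobase, and *Nrf1* was lowest at 1.62 ± 0.171. The ranges over hearts of all neighbors in this order overlapped except those of *Pparg* and *Nrf1*, although *Ppargc1b* was above *Esrrg* in each of the 12 hearts, as *Pparg* was above *Nrf1*. *Ppara* was thus the most abundant of the 3 PPAR transcripts, in each of the 12 hearts above the highest value of *Pparg*, 9.18 CPM per kilobase. With the length of the longest transcript in place of merged exons, *Esrra* came first at 53.1 CPM per kilobase and 6 of the 10 ranks moved. The top 3 are therefore not ordered by these data.

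**Figure D1:**
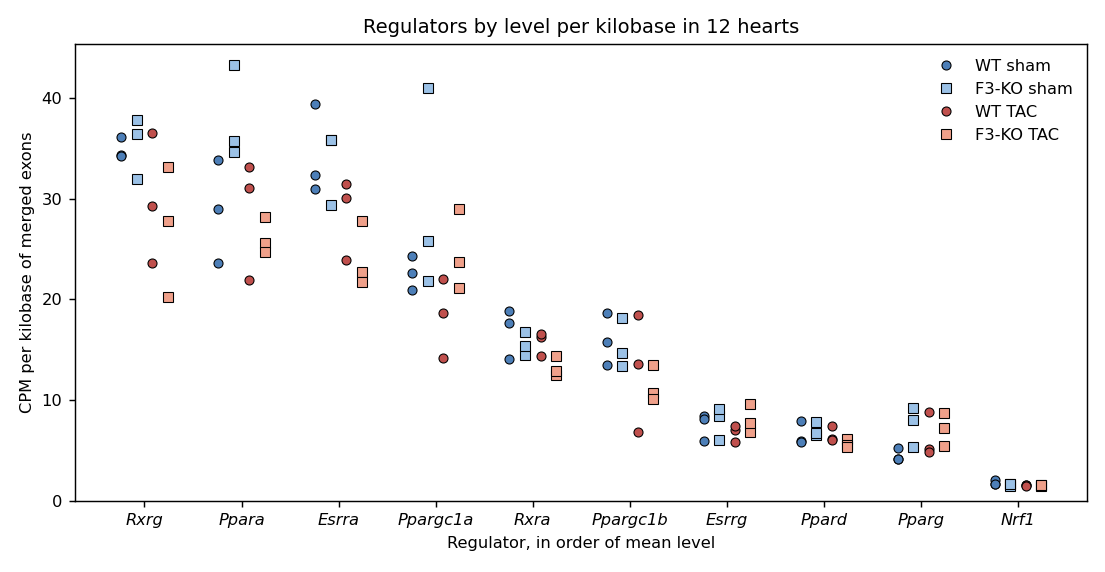
Level of each regulator in CPM per kilobase of merged exons (vertical axis, linear from 0), in order of mean level from left to right; each point is 1 heart, colored by group. *Rxrg*, *Ppara* and *Esrra* share the top, at means of 30.1 to 31.8 CPM per kilobase, while *Nrf1* lies below all others at 1.62.

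*Pparg* marks fat cells when it is high, so the markers of fat were examined beside it. Of 6 adipocyte markers in the count table (*Adipoq*, *Cfd*, *Cidec*, *Plin1*, *Retn* and *Ucp1*), the summed level was 0.0864 to 1.67 CPM per heart, no marker exceeded a count of 9 in any heart, and *Plin1*, which coats the fat droplet of adipocytes, was at a count of 0 in all 6 sham-operated hearts. *Pparg* was at 12.2 to 27.1 CPM in the same hearts.

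The first comparison asked how pressure overload moved the regulators in each genotype. After TAC 9 of the 10 members had lower fitted levels than after sham in WT hearts and 9 of 10 in F3-KO hearts, where 50% and 47.1% of all 14094 tested genes did so. The median log2 fold change of the members was -0.18 in WT and -0.29 in F3-KO hearts, against 0 and 0.02 over all tested genes. None of the single genes passed the test: edgeR's quasi-likelihood test called 0 of the 10 members in WT hearts, 0 in F3-KO hearts and 0 in the mean of both genotypes at an adjusted p under 0.05 (0%, 0% and 0.078% of all tested genes were called). At an unadjusted p under 0.05 there were 0, 2 and 3 members, where 6.28%, 17.1% and 17.8% of all genes passed. DESeq2 called 0, 0 and 1 member (0.164%, 3.11% and 4.21% of the genes with an adjusted p). Without the 3 hearts high in matrix markers, edgeR called 0 members in each comparison (0%, 0.42% and 0.255% of all genes), and 6 of 10 members in WT and 9 of 10 in F3-KO hearts were lower after TAC (49.3% and 51.6% of all genes), with medians of -0.06 and -0.21. The 3 hearts of each sham group are the controls of the genotype comparisons as well.

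**Figure D2:**
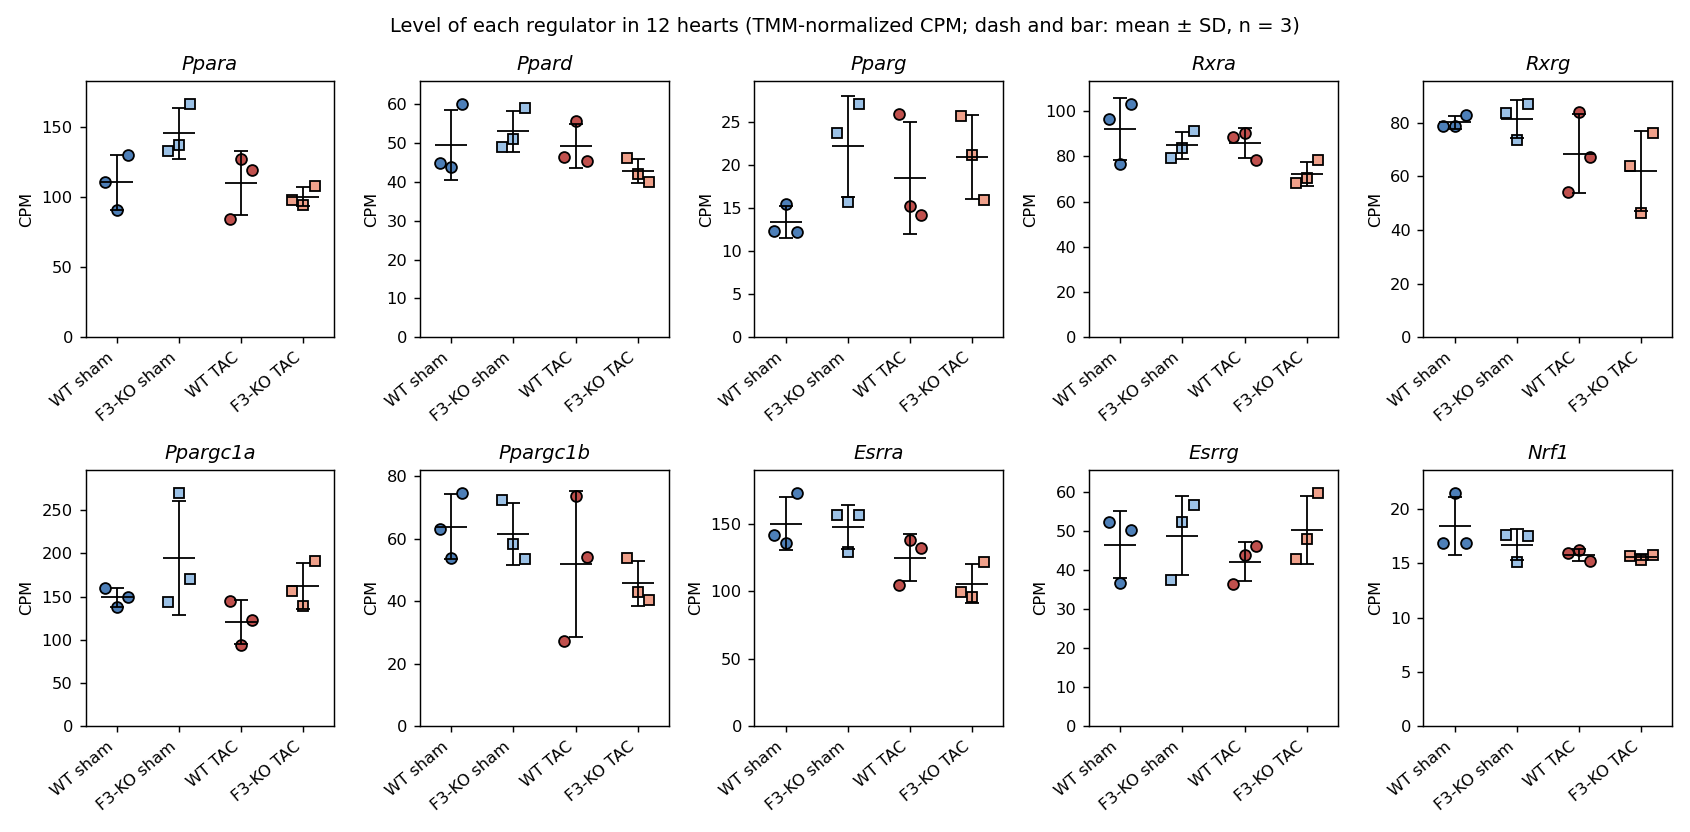
TMM-normalized CPM of the 10 regulators (vertical axes, linear from 0) in the 4 groups; points are single hearts, dashes and bars the mean ± SD of 3 hearts. *Esrra* and *Ppara* in TAC-operated F3-KO hearts lie below all sham-operated F3-KO hearts, and *Ppargc1a* is highest in 1 sham-operated F3-KO heart at 270 CPM.

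*Esrra*, the estrogen-related receptor that acts with PGC-1 on oxidative genes, came closest to a call. Its levels were 142, 136 and 173 CPM in the WT sham hearts and 105, 138 and 132 CPM in the WT TAC hearts. In F3-KO hearts they were 157, 129 and 157 CPM after sham and 99.8, 95.5 and 122 CPM after TAC. The F3-KO groups did not overlap, while the WT groups did. The log2 fold change after TAC was -0.27 (95% interval -0.60 to 0.07, adjusted p = 0.803) in WT hearts and -0.48 (-0.82 to -0.14, unadjusted p = 0.00942, adjusted p = 0.184) in F3-KO hearts by edgeR. In the mean of genotypes it was -0.37 (-0.61 to -0.13, unadjusted p = 0.00538, adjusted p = 0.135). DESeq2 called the latter at -0.38 (adjusted p = 0.0323), edgeR called it without F3-KO TAC replicate 3 at -0.43 (adjusted p = 0.0448), and over 19 alternatives the adjusted p ranged from 0.0323 to 0.759. The highest of these came without the 3 hearts high in matrix markers, where the log2 fold change was -0.22 (95% interval -0.49 to 0.06).

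*Ppara* had its lowest p after TAC in F3-KO hearts. In WT hearts it was at 111, 90.6 and 130 CPM after sham and 84.0, 127 and 119 CPM after TAC, a log2 fold change of -0.01 (95% interval -0.39 to 0.37, edgeR adjusted p = 0.995). In F3-KO hearts it was at 133, 137 and 166 CPM after sham and at 98.1, 94.6 and 108 CPM after TAC, so that each TAC heart was below each sham heart. That log2 fold change was -0.54 (95% interval -0.92 to -0.16, unadjusted p = 0.00958, adjusted p = 0.185, edgeR), or 0.688-fold. The test of the difference between genotypes gave -0.53 (95% interval -1.07 to 0.01, unadjusted p = 0.0544, adjusted p = 0.954, edgeR), so a difference between genotypes was not shown. Without the 3 hearts high in matrix markers, the value in F3-KO hearts was -0.45 (95% interval -0.94 to 0.04), with 1 TAC-operated F3-KO heart left, which is assumed to vary like the other groups. The value in WT hearts turned to 0.16 (-0.22 to 0.53) without them.

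Among the partners of PPARs, *Rxrg*, the retinoid X receptor enriched in muscle, ranged more widely after TAC than after sham. Sham-operated hearts had 78.8, 78.7 and 82.9 CPM in WT and 83.6, 73.5 and 86.8 CPM in F3-KO. After TAC the values were 54.3, 83.8 and 67.3 CPM in WT hearts and 63.8, 46.4 and 76.1 CPM in F3-KO hearts. The groups overlapped in both genotypes, and the lowest values belonged to hearts that were high in matrix markers. The log2 fold change in the mean of genotypes was -0.31 (95% interval -0.59 to -0.02, unadjusted p = 0.036, adjusted p = 0.246, edgeR), and -0.09 (-0.34 to 0.15) without the 3 hearts. *Rxra*, the common partner of many nuclear receptors, was at 76.8 to 103 CPM in WT sham, 78.3 to 90.4 in WT TAC, 79.3 to 91.3 in F3-KO sham and 68.2 to 78.4 CPM in F3-KO TAC hearts. Its F3-KO groups did not overlap, with a log2 fold change of -0.23 (95% interval -0.51 to 0.05).

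The 2 coactivators had wide intervals. *Ppargc1a* was at 160, 138 and 149 CPM in WT sham and 145, 93.7 and 123 CPM in WT TAC hearts, a log2 fold change of -0.30 (95% interval -0.80 to 0.20, edgeR adjusted p = 0.851). In F3-KO hearts it was at 144, 270 and 170 CPM after sham and 156, 139 and 191 CPM after TAC, with a log2 fold change of -0.27 (-0.76 to 0.23) that became 0.03 without F3-KO sham replicate 2. *Ppargc1b* had the largest spread of the 10 members within groups, with a residual SD of 0.42 on the log2 scale. Its WT TAC hearts alone spanned 27.2 to 73.8 CPM, and its log2 fold changes after TAC were -0.31 (-0.92 to 0.31) in WT and -0.43 (-1.05 to 0.19) in F3-KO hearts. On leaving out the 3 hearts high in matrix markers, the WT value was 0.01 (-0.42 to 0.45) and the F3-KO value -0.62 (-1.19 to -0.05, unadjusted p = 0.0363, adjusted p = 0.496, edgeR). In F3-KO against WT hearts after TAC it then went from -0.18 (-0.80 to 0.44) to -0.69 (-1.29 to -0.09, unadjusted p = 0.0286, adjusted p = 0.445, edgeR), on 1 F3-KO and 2 WT hearts, whereas leaving out single hearts gave -0.49 to 0.17.

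*Pparg* was the member with a higher fitted level after TAC in WT hearts, with 12.4, 15.5 and 12.2 CPM after sham and 26.0, 15.3 and 14.2 CPM after TAC. The groups overlapped, and the log2 fold change was 0.47 (95% interval -0.12 to 1.06, edgeR adjusted p = 0.802). It was -0.08 (-0.66 to 0.50) in F3-KO hearts and 0.20 (-0.22 to 0.61) in the mean of genotypes, the latter -0.17 (-0.58 to 0.25) without the 3 hearts high in matrix markers. *Ppard*, the widely expressed PPAR, was at 43.9 to 59.9 CPM in WT sham and 45.4 to 55.7 CPM in WT TAC hearts. In F3-KO hearts its 49.0 to 59.0 CPM after sham did not overlap the 40 to 46.1 CPM after TAC, with a log2 fold change of -0.31 (95% interval -0.63 to 0.01, edgeR adjusted p = 0.299). *Esrrg*, the second estrogen-related receptor, was at 36.4 to 59.7 CPM over all hearts, with log2 fold changes after TAC of -0.14 (-0.56 to 0.28) in WT and 0.04 (-0.38 to 0.46) in F3-KO hearts. *Nrf1*, which acts on nuclear genes of the respiratory chain, had the smallest residual SD, 0.12 on the log2 scale, and was at 15.1 to 21.5 CPM over all hearts. Its WT groups did not overlap, with 16.9 to 21.5 CPM after sham and 15.2 to 16.2 CPM after TAC, a log2 fold change of -0.22 (-0.51 to 0.06, edgeR adjusted p = 0.804). In all, the 3 sham and 3 TAC hearts did not overlap for 1 member in WT and 4 members in F3-KO hearts, where 9.10% and 22.9% of all genes did not overlap.

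**Figure D3:**
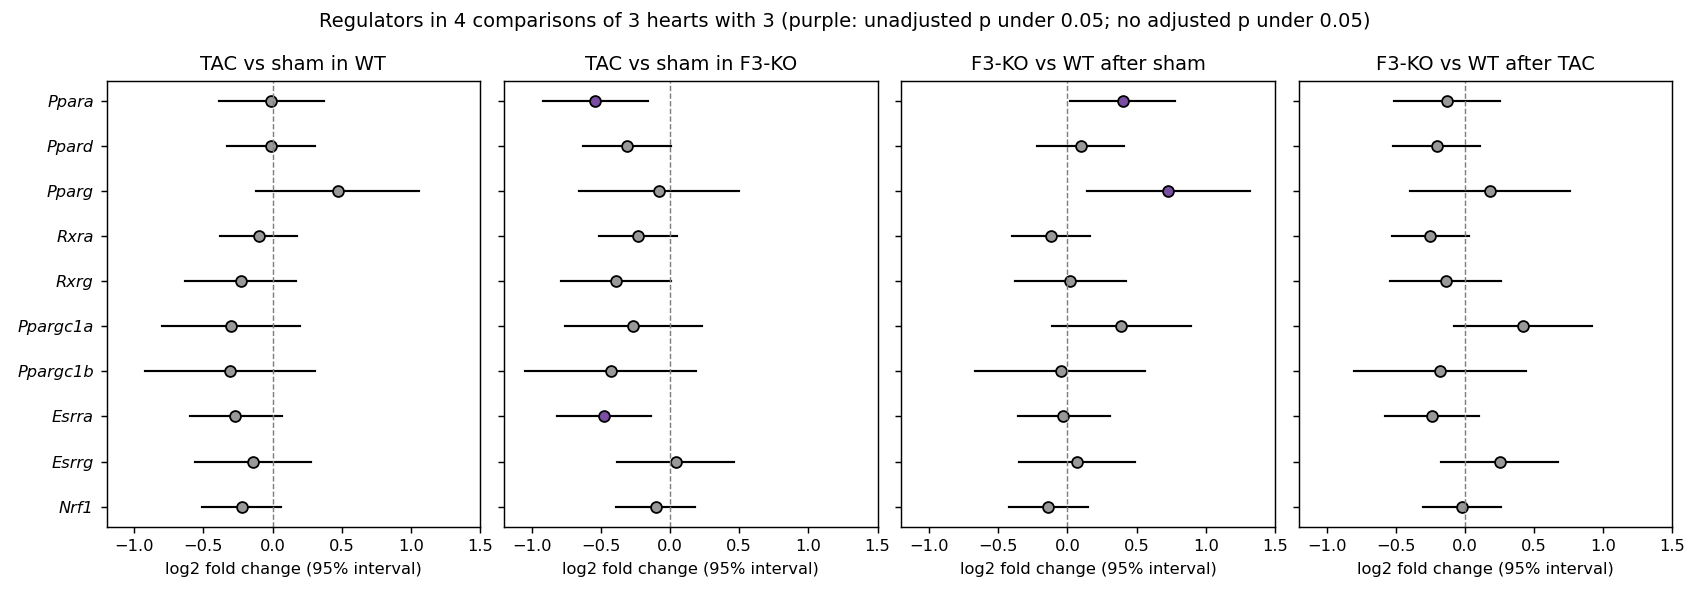
Log2 fold change of each regulator (horizontal axis; point, with its 95% interval as a line) in 4 comparisons of 3 hearts with 3, from edgeR's model of all 12 hearts; purple points have an unadjusted p under 0.05. After TAC in F3-KO hearts, *Ppara* (-0.54) and *Esrra* (-0.48) are purple, and after sham *Pparg* (0.73) and *Ppara* (0.40) are purple in F3-KO against WT hearts.

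The second comparison asked how the loss of *Fabp3* moved the regulators. edgeR called 0 of 10 members in F3-KO against WT hearts after sham, 0 after TAC and 0 in the mean of both surgeries (0.106%, 0.078% and 0.412% of all genes were called), and DESeq2 also called 0 in each (0.660%, 0.636% and 1.40%). At an unadjusted p under 0.05 there were 2, 0 and 2 members, where 6.02%, 10% and 10.1% of all genes passed. The median log2 fold change of the members was 0.05 after sham and -0.14 after TAC, against 0 and 0.02 over all tested genes.

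After sham the values with the largest differences were those of *Pparg* and *Ppara*, and in both the groups did not overlap (13.7% of all genes did not overlap in this comparison). *Pparg* was at 12.4, 15.5 and 12.2 CPM in WT hearts and at 23.8, 15.7 and 27.1 CPM in F3-KO hearts. The closest hearts, at 15.5 and 15.7 CPM, were nearly level. The log2 fold change was 0.73 (95% interval 0.14 to 1.32, unadjusted p = 0.0192, adjusted p = 0.667, edgeR), and over 20 alternatives it was 0.56 to 0.92 with an adjusted p of 0.281 to 1. For *Ppara* the log2 fold change was 0.40 (95% interval 0.02 to 0.78, unadjusted p = 0.0427, adjusted p = 0.821, edgeR), from the sham values given above. Summed matrix markers were 1150 to 1510 CPM in F3-KO sham and 799 to 1600 CPM in WT sham hearts, with a median log2 fold change of 0.64 over the 9 markers. Their mean log2 CPM, relative to the WT sham mean, was 0.33 to 0.69 in F3-KO sham and -0.21 to 0.24 in WT sham hearts. Groups did not overlap for 5 of the 9 markers (13.7% of all genes), and 7 had higher and 2 lower fitted levels in F3-KO hearts. The part of the matrix markers in the *Pparg* and *Ppara* values was not tested.

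After TAC the same contrast gave *Pparg* 26.0, 15.3 and 14.2 CPM in WT hearts and 25.7, 21.2 and 16.0 CPM in F3-KO hearts, which overlapped (log2 fold change 0.18, 95% interval -0.40 to 0.76). *Ppara* was at -0.13 (-0.51 to 0.25). *Ppargc1a*, the coactivator induced by fasting, cold and exercise, was at 1.34-fold of WT after TAC and 1.31-fold after sham. The latter rests on F3-KO sham replicate 2, at 270 CPM, without which its log2 fold change went from 0.39 to 0.07. In the mean of surgeries its log2 fold change was 0.41 (95% interval 0.05 to 0.76, unadjusted p = 0.028, adjusted p = 0.430, edgeR), and 0.59 (0.16 to 1.02, adjusted p = 0.306) without the 3 hearts high in matrix markers. It was 0.24 without F3-KO sham replicate 2. *Esrra* was at -0.03 (-0.36 to 0.31) after sham and -0.24 (-0.58 to 0.10) after TAC. *Rxra* was at -0.25 (-0.53 to 0.03) after TAC, and *Esrrg* at 0.25 (-0.17 to 0.67). Groups overlapped for all 10 members after TAC, where 11.4% of all genes did not overlap. For the difference between the genotypes in the response to TAC, edgeR called 0 members (0% of all genes), 0 had an unadjusted p under 0.05 (4.48% of all genes), and DESeq2 called 0 (0.0313%). The intervals leave room for effects of up to about 1.32 on the log2 scale for *Pparg* after sham, so a missed call does not show that the genotypes were alike.

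The wider network of these regulators was read from 5 lists of genes. In the coactivators and kinases 0 of 13 genes were called by edgeR in any of the comparisons. *Prdm16*, which works with PGC-1α in brown fat, was at 24.4 ± 2.12 CPM in WT sham and 16.1 ± 3.92 CPM in WT TAC hearts (SD, n = 3), a log2 fold change of -0.60 (adjusted p = 0.782). *Lpin1*, a coactivator of PGC-1α and PPARα, was at -0.34 in WT hearts after TAC and -0.31 in the mean of genotypes (adjusted p = 0.163). *Prkaa1*, a catalytic subunit of AMP-activated kinase, which activates PGC-1α, was at 27.4 ± 0.228 CPM in F3-KO sham and 35.2 ± 3.49 CPM in F3-KO TAC hearts, and its log2 fold change of 0.36 had an adjusted p of 0.184. Of 8 corepressors and brakes 0 were called, and *Nr0b2*, a repressor of nuclear receptors, was at -0.54 after TAC in F3-KO hearts (adjusted p = 0.228). Of 10 partner and downstream factors 0 were called, and the thyroid hormone receptor *Thra* had the lowest p, at -0.27 in F3-KO against WT hearts in the mean of surgeries (adjusted p = 0.402). *Tfam*, which maintains mitochondrial DNA, was at -0.18 after TAC in the mean of genotypes (adjusted p = 0.440).

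Target genes of these regulators had lower fitted levels after TAC in F3-KO hearts, by less when the hearts high in matrix markers were left out. Among 31 mitochondrial genes driven by PGC-1, ERR and NRF1, mostly of the citric acid cycle and the respiratory chain but also *Mfn2* (mitochondrial fusion), *Ckmt2* (creatine kinase) and *Slc25a4* (the ADP/ATP carrier), 0 were called after TAC in either genotype. In F3-KO hearts the fitted level was lower after TAC for 31 of 31 of them, the median log2 fold change was -0.50, 19 had an unadjusted p under 0.05 in that direction (6.47% of all genes) and 19 had groups that did not overlap (22.9% of all genes), all as given by edgeR's model of 12 hearts. In WT hearts it was lower for 18 of 31, the median was -0.01 and 0 had an unadjusted p under 0.05 in that direction (2.60% of all genes). For the difference between genotypes in the response to TAC, the median of the 31 was -0.45 and edgeR called 0 of them. Of the 31, 3 had an unadjusted p under 0.05 there (4.48% of all genes), so a difference between genotypes was not shown for single genes. Leaving out the 3 hearts high in matrix markers moved the median of this difference to -0.32. The WT median moved to 0.13, with 26 of 31 higher after TAC. When the 3 hearts high in matrix markers were left out, 30 of 31 were still lower in F3-KO hearts, but the median was -0.19 and 1 had an unadjusted p under 0.05 with a lower level (4.43% of all genes), on 1 remaining F3-KO TAC heart. Markers of red blood cells also moved in this comparison. In F3-KO hearts the 5 markers summed to 1070 to 4720 CPM after sham and 379 to 901 CPM after TAC, with a median log2 fold change of -2.16, and 5 of 5 had an unadjusted p under 0.05 and groups that did not overlap. In WT hearts they summed to 629 to 1760 CPM after sham and 321 to 4250 CPM after TAC, with a median of 0.82. For the difference between genotypes their median was -3.08, with 5 of 5 at an unadjusted p under 0.05, and edgeR called 0 of them in any comparison. No marker was at a count of 0 in any heart, and their part in the target gene values was not tested. *Uqcrc1*, a core subunit of respiratory complex III, had levels in F3-KO mice of 1580 ± 148 CPM after sham and 994 ± 193 CPM after TAC (SD, n = 3), a log2 fold change of -0.67 (adjusted p = 0.179). *Cycs*, cytochrome c, was at 393 ± 33.8 CPM and 262 ± 82.4 CPM in these groups. Its log2 fold change was -0.58 (adjusted p = 0.204) in F3-KO and 0.33 in WT hearts, and the difference between genotypes of -0.91 had an adjusted p of 0.954. *Cox5b* and *Uqcrfs1* were at -0.56 and -0.50 in F3-KO hearts (adjusted p = 0.195 and 0.196). *Atp5a1*, named here after its values were seen, was at -2.20 in WT hearts with at most 5.16 CPM in any heart. The alpha subunit of ATP synthase that this symbol stands for is abundant in heart muscle, so it is uncertain that this row holds the reads of that gene, and its place among the 31 is uncertain too.

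Of 28 tested PPAR target genes, 0 were called. In F3-KO hearts after TAC 11 passed an unadjusted p of 0.05 with a lower level (6.47% of all genes), 24 of 28 were lower (47.1% of all genes) and the median was -0.44, against 0, 17 and -0.06 in WT hearts (2.60% and 50% of all genes for the counts). When the 3 hearts were left out, these values in F3-KO hearts were 0 (4.43% of all genes), 18 (51.6%) and -0.11. In F3-KO against WT hearts after TAC the median was -0.36 with all hearts and 0.04 without the 3, which sets 1 F3-KO heart against 2 WT hearts. For the difference between genotypes in the response to TAC, the median of the 28 was -0.46 with all hearts. It was 0.04 without the 3 hearts, with 15 of 28 higher, on 1 remaining F3-KO TAC heart. With all hearts edgeR called 0 of the 28 for this difference, and 2 had an unadjusted p under 0.05 (4.48% of all genes). *Slc25a20*, the carnitine-acylcarnitine carrier, had levels in F3-KO mice of 253 ± 27.3 CPM after sham and 152 ± 43.8 CPM after TAC (SD, n = 3), a log2 fold change of -0.73 (adjusted p = 0.175, edgeR), and at 182 ± 16.3 CPM and 199 ± 4.31 CPM in the WT groups. *Slc27a1*, a fatty acid transport protein, was at -1.02 in F3-KO against WT hearts after TAC (adjusted p = 0.365). *Plin5*, a coat protein of lipid droplets, and *Acot2*, a mitochondrial acyl-CoA thioesterase, were at -0.74 and -0.75 in that comparison (adjusted p = 0.436 for both). The targets did not all go one way, as 4 of 28 had higher fitted levels after TAC in F3-KO hearts. *Pdk4* and *Angptl4* are a pair often used as reporters of PPAR activity and are named here after their values were seen. In F3-KO hearts their means were 146 and 22.9 CPM after sham and 197 and 39.4 CPM after TAC, with groups that overlapped. In WT TAC hearts they ranged over 181 to 1650 CPM (685 ± 837 for *Pdk4*) and 2.0 to 43.0 CPM. *Angptl4* was at 4.03 to 8.16 CPM in WT sham and 17.3 to 27.5 CPM in F3-KO sham hearts, and its fitted log2 difference was 2.08 (adjusted p = 0.704). The 9 cardiomyocyte markers had medians of 0.02 in WT and -0.39 in F3-KO hearts after TAC, with summed levels of 54600 to 66300 CPM in F3-KO TAC and 83800 to 94300 CPM in F3-KO sham hearts, and their part in the target gene values was not tested. The 9 fibroblast and matrix markers had medians of 1.38 and 1.86, with 0 markers at a count of 0 in any heart. As a check of the TAC labels, 5 hypertrophy markers were examined. Of these, *Nppb* and *Acta1* were the only genes of any list that edgeR called. Both calls were in the mean of genotypes, with log2 fold changes of 1.86 (adjusted p = 0.0105) and 3.36 (adjusted p = 0.0248). All 5 had higher fitted levels after TAC in each genotype. Groups did not overlap for 2 of them in WT and 3 in F3-KO hearts. *Myh7* was at 290 to 648 CPM in F3-KO sham and 174 to 23100 CPM in F3-KO TAC hearts. By summed level, WT sham replicate 2 (10300 CPM) was above WT TAC replicate 2 (3900 CPM) and F3-KO TAC replicate 1 (7270 CPM). The summed markers thus did not separate all sham from all TAC hearts. The mean log2 CPM of the 5 markers, relative to the WT sham mean, did separate them. It was -0.36 to 0.59 in sham and 0.9 to 3.36 in TAC hearts.

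**Figure D4:**
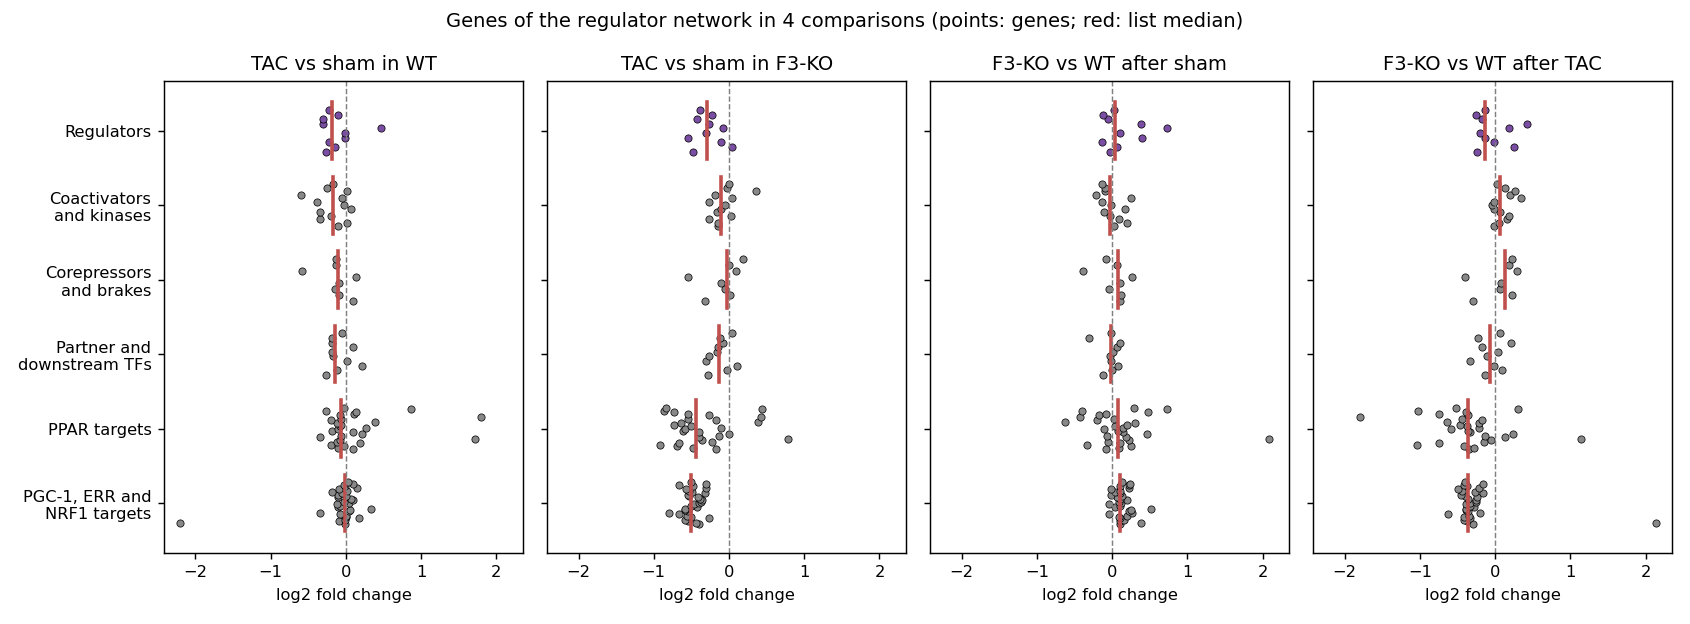
Log2 fold change (horizontal axis) of each tested gene of the regulators and of 5 lists around them in 4 comparisons; points are genes, spread vertically only for legibility, and red bars are list medians. After TAC in F3-KO hearts the medians of the PPAR targets (-0.44) and of the PGC-1, ERR and NRF1 targets (-0.50) lie below that of the regulators (-0.29), while in WT hearts they lie at -0.06 and -0.01. With the 3 hearts high in matrix markers left out, the F3-KO medians were -0.11 and -0.19.

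Whether a regulator followed its target genes was examined heart by heart. The level of each member in log2 CPM was set against the mean log2 CPM of 3 gene lists, 30 relations in all, with permutation tests adjusted over the 30. Hearts were permuted without regard to the 4 groups, so differences shared between groups enter these relations. The share of all tested genes with relations as strong was not determined, so these values do not set the members apart from other genes. With the 31 PGC-1, ERR and NRF1 targets, *Esrra* gave r = 0.87 and rho = 0.87 over 12 hearts (permutation p = 0.00012 for r and 0.00053 for rho, adjusted p = 0.0036 for r). *Rxrg* gave r = 0.89 and rho = 0.79 (permutation p = 0.00038 and 0.00314, adjusted p = 0.0038), and *Ppara* gave r = 0.77 and rho = 0.84 (permutation p = 0.00257 and 0.00103, adjusted p = 0.0154). Of the 2 PGC-1 coactivators, *Ppargc1a* gave r = 0.16 and rho = 0.29 (permutation p = 0.595 and 0.356). *Ppargc1b* gave r = 0.53 and rho = 0.55 (permutation p = 0.0789 and 0.0701). *Nrf1* gave r = 0.25 and rho = 0.43 (permutation p = 0.402 and 0.162). Without the 2 hearts farthest from the median, F3-KO TAC replicates 1 and 2, r was 0.76 for *Esrra*, 0.73 for *Rxrg* and 0.88 for *Ppara* (permutation p = 0.0122, 0.0171 and 0.00118).

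These relations were also examined within each surgery, with both genotypes pooled, and a difference between the surgeries was not tested. Within the 6 sham-operated hearts r was 0.46 for *Esrra*, 0.61 for *Rxrg* and 0.82 for *Ppara* (exact permutation p = 0.357, 0.181 and 0.0417). Within the 6 TAC-operated hearts it was 0.91, 0.88 and 0.69 (exact permutation p = 0.0111, 0.0208 and 0.122). In the 9 hearts left without the 3 that were high in matrix markers, r was 0.58 for *Esrra*, 0.44 for *Rxrg* and 0.81 for *Ppara* (exact permutation p = 0.104, 0.232 and 0.00952, the latter 0.286 after adjustment over 30 relations). In these 9 hearts rho was 0.68 for *Esrra*, 0.52 for *Rxrg* and 0.75 for *Ppara* (exact permutation p = 0.0503, 0.162 and 0.0255). For *Esrra* and *Rxrg* both r and rho were thus lower than over 12 hearts. The 3 hearts hold the lowest values of both genes, so leaving them out also narrows the range. With the 28 PPAR target genes 0 of the 10 members passed, and *Ppara* gave r = 0.22 and rho = 0.25 (permutation p = 0.508 and 0.431).

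Matrix markers fell into 2 clusters, so no single r is given for them over 12 hearts. In the 9 hearts with low markers r was -0.46 for *Esrra*, 0.05 for *Rxrg*, 0.18 for *Ppara* and 0.45 for *Pparg*, and 0 of the 10 members passed (exact permutation p = 0.211, 0.896, 0.648 and 0.232). The 3 hearts with high markers held *Esrra* at 105, 99.8 and 95.5 CPM, below 122 to 173 CPM in all the other 9. They held *Rxrg* at 54.3, 63.8 and 46.4 CPM, below 67.3 to 86.8 CPM in the others. The part of matrix cells in these levels was not tested.

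**Figure D5:**
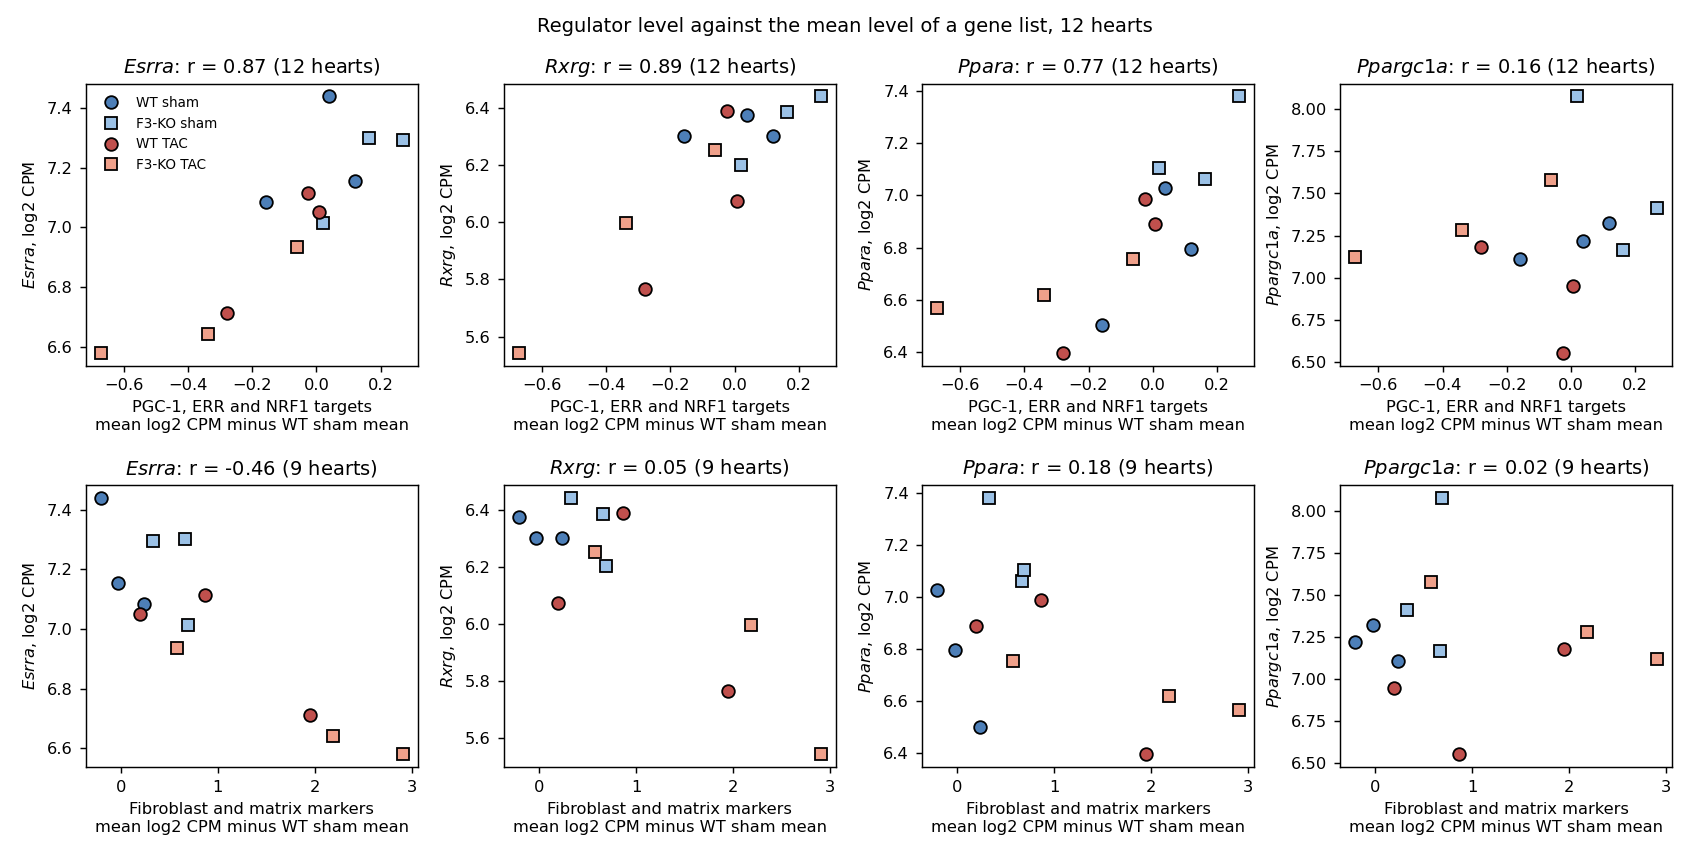
Level of 4 regulators (vertical axes, log2 CPM) against the mean log2 CPM, relative to the WT sham mean, of the PGC-1, ERR and NRF1 targets (top) and of the fibroblast and matrix markers (bottom); each point is 1 of 12 hearts, and r is given over 12 hearts on top and over the 9 hearts with low markers below. *Esrra* and *Rxrg* rise with the targets (r = 0.87 and 0.89) and are lowest in the 3 hearts with high matrix markers, whereas *Ppargc1a* shows no such slope (r = 0.16).

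Among the members themselves, *Esrra* and *Rxrg* were most alike over the 12 hearts (r = 0.88), followed by *Ppara* with *Ppard* and with *Esrra* (r = 0.73 for both). After the group means were removed, *Ppara* with *Esrra* came first (r = 0.82), then *Esrra* with *Rxrg* (0.80) and *Ppara* with *Esrrg* (0.74). *Ppargc1a* was not like *Esrra* (r = -0.03) or *Ppargc1b* (r = -0.17), and *Pparg* had negative r with *Rxra*, *Rxrg*, *Ppargc1b* and *Esrra* (-0.45 to -0.35). These are descriptions without a test, since the values share libraries and scaling.

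A search over 10994 genes of at least 5 CPM gave the 3 genes most like each member by r over 12 hearts. For *Esrra* they were *Acaa1a*, *Rbm38* and *Mtg2* (r = 0.97 each). For *Ppara* they were *Rhot2* (0.92), *Asb10* (0.92) and *Cadm4* (0.91), and for *Ppard* *Atad3a* (0.91), *Dgcr2* (0.91) and *Ubtf* (0.88). *Pparg* was most like *Prkch* (0.90), *Fabp4* (0.89) and *Ubp1* (0.87), of which *Fabp4* encodes the fatty acid-binding protein of fat cells and capillary endothelium, at a mean of 782 CPM. *Rxra* was most like *Mybbp1a* (0.95), *Atg9a* (0.94) and *Celsr2* (0.93), and *Rxrg* most like *Rpl3l* (0.94), the muscle form of a ribosomal protein, *Cenpv* (0.94) and *Fastk* (0.93). *Ppargc1a* was most like *Ern1* (0.87), *Rnf141* (0.86) and *Cdc14b* (0.85), and *Ppargc1b* most like *Dot1l*, *Mtfp1* and *Reep5* (0.95 each). *Esrrg* was most like *Ddx6* (0.93), *Mreg* (0.89) and *Cyfip2* (0.88), and *Nrf1* most like *Cdk2ap2* (0.93), *Tcf15* (0.92) and *Ccnl2* (0.88).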

How the data were processed

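Whole-heart RNA of 12 mice was sequenced. The authors deposited estimated counts per gene, not normalized, in 1 joint table and 1 table per heart. For 11 hearts both held the same values, and for WT sham replicate 2 the joint table was used because its own breaks off. Per the submitters' processing notes, HISAT2 2.0.4 and STAR 2.3.0 mapped the reads and DESeq2 was used, with builds mm8 and mm9 named. The counting tool is not given in the sources used here, and 40.6% of values were not whole, so reads shared by similar genes may have been split. Counts were rounded to whole numbers.

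Genes were filtered with filterByExpr (minimum count 10, 14094 kept), scaled with TMM (factors 0.931 to 1.09) and tested in 1 edgeR 4.0.16 quasi-likelihood model of the 4 groups (8 residual degrees of freedom, R 4.3.3) with Benjamini-Hochberg adjustment over all tested genes and calls at an adjusted p under 0.05. Intervals are 95%. Log2 CPM used a prior count of 2. Relations used 100000 permutations, or all of them for 6 or 9 hearts, two-sided. Scripts were tested on simulated data. Alternatives were DESeq2 1.42.0, limma 3.58.1, other scaling, filters and thresholds, a replicate block and leaving out each heart. The omission of the 3 hearts, the target gene relations and the transcript length were added after the data were seen. The members and lists were chosen with earlier results of these data known. Genes were named by rule: all members, called genes of each list or else the 4 with the lowest p, and the 3 genes most like each member. Replicates of a group had a chi-square per degree of freedom of 10.4 or more, so no pair was merged. Lengths are from GENCODE vM21 and promoters from RefSeq. The study describes the replicates as biological.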

Additional observations from a re-analysis of the deposited data

How the results depend on the processing

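Of the 7 comparisons, edgeR called 0 of the 10 members in each. After TAC in the mean of genotypes, DESeq2 called 1 member, *Esrra*, where 4.21% of the genes with an adjusted p were called. Leaving out 1 heart gave 0 to 1 member there by edgeR (1 without F3-KO TAC replicate 3). The unadjusted p was under 0.05 for 2 members after TAC in F3-KO hearts and 3 in the mean of genotypes (17.1% and 17.8% of all genes). In F3-KO against WT hearts it was so for 2 after sham and 2 in the mean of surgeries (6.02% and 10.1% of all genes). Over 12 hearts 2 members, *Esrra* and *Rxrg*, passed the test of a relation to the matrix markers, and 0 passed without the 3 hearts that stand apart in them. With adjustment over the 10 members of 1 list, the number that passed was 1 to 3 when 1 heart was left out (1 without F3-KO TAC replicate 2).

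Signs of small values turned with single hearts. The ranges of the log2 fold changes with 1 heart left out were, after TAC in WT, -0.14 to 0.15 for *Ppara*, -0.11 to 0.15 for *Ppard* and -0.65 to 0.00 for *Ppargc1b*. After TAC in F3-KO hearts they were -0.29 to 0.09 for *Pparg*, -0.44 to 0.03 for *Ppargc1a* and -0.12 to 0.16 for *Esrrg*, and in the mean of genotypes -0.13 to 0.01 for *Esrrg*. In F3-KO against WT hearts after sham they were -0.03 to 0.08 for *Rxrg*, -0.19 to 0.07 for *Ppargc1b*, -0.10 to 0.09 for *Esrra* and -0.07 to 0.23 for *Esrrg*. After TAC they were -0.31 to 0.03 for *Rxrg* and -0.49 to 0.17 for *Ppargc1b*, and in the mean of surgeries -0.10 to 0.03 for *Ppard*, -0.15 to 0.03 for *Rxrg* and -0.27 to 0.06 for *Ppargc1b*. For the difference between genotypes they were -0.34 to 0.01 for *Rxrg*, -0.14 to 0.34 for *Ppargc1a*, -0.44 to 0.22 for *Ppargc1b* and -0.01 to 0.18 for *Nrf1*. For r with the PPAR targets they were -0.08 to 0.34 for *Esrrg*, -0.09 to 0.35 for *Pparg*, -0.52 to 0.33 for *Ppargc1b*, -0.02 to 0.31 for *Ppard*, -0.22 to 0.81 for *Rxrg*, -0.02 to 0.68 for *Esrra* and -0.13 to 0.48 for *Nrf1*.

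Without the 3 hearts high in matrix markers, the log2 fold change after TAC turned to 0.16 for *Ppara*, 0.04 for *Ppard* and 0.01 for *Ppargc1b* in WT hearts and to -0.17 for *Pparg* and 0.12 for *Esrrg* in the mean of genotypes. That of *Rxrg* in F3-KO against WT hearts became 0.00 in the mean of surgeries. With the replicate number as a block, 0 members were called in each comparison. Of 18 correlations between same-numbered hearts, 4 were over 0.1 (-0.14 to 0.36). Hearts with different numbers were not compared in this way, so whether the numbers pair the hearts was not settled. The cause of these changes was not tested.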
